A study of Mus musculus with 12 samples.

Results

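The 38 genes described here encode proteins of the synaptic vesicle, of the machinery that fuses it with the membrane, and of the scaffolds and adhesion molecules on either side of the synapse. They were chosen by name from a list of such genes, with earlier results of these data known. Each was read from the probe set with its single symbol that had the highest mean over all arrays. Of the 38 genes, 37 had a probe set of their own, among 19938 genes in all that did. All 37 lay above the filter on dim genes, so all were tested among 14195 genes. Vamp2, the vesicle SNARE (a protein of the helical bundle that pulls membranes together), had only a probe set shared with Ubr3 and was given no value.

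RNA was measured on 12 Affymetrix mouse gene arrays from the forebrain at postnatal day 0, 3 biological replicates for each of 4 genotypes. GBS mice were hGFAP-cre::Ctnnb1(ex3)Fl/+SmoM2Fl/+ and their tissue is labelled tumor, so genotype and kind of tissue cannot be told apart. GS mice were hGFAP-cre::SmoM2Fl/+, GB mice were hGFAP-cre::Ctnnb1(ex3)Fl/+, and Control mice were Ctnnb1(ex3)Fl/+SmoM2Fl/+. The human GFAP promoter drives Cre in radial glia and the cells that descend from them, Ctnnb1(ex3) yields a stabilised beta-catenin after recombination, and SmoM2 is an active form of Smoothened, the signal transducer of the sonic hedgehog pathway. The Control mice had no Cre beside the same 2 floxed alleles, so an effect of Cre itself cannot be told apart from that of the alleles. The series was made as a mouse model of a brain tumor of infancy, the embryonal tumor with multilayered rosettes.

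Neurons release transmitter when calcium enters the nerve ending, binds synaptotagmin and lets a SNARE complex fuse the vesicle with the membrane at the active zone. Neurexins on the presynaptic side bind neuroligins on the other side, where Dlg, Shank and Homer proteins hold receptors and signalling enzymes in place. In rodent forebrain these genes are switched on as neurons leave the cell cycle and grow contacts, and most synapses form after birth, so newborn tissue shows them while still rising.

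The values are log2 expression after RMA, the authors' background correction, normalization and summary of probes. Differences were tested with limma on the 12 arrays, and here a gene counts as called when its p, adjusted by Benjamini-Hochberg over the 14195 genes, is under 0.05. Array medians lay between 6.52 and 6.69. GB replicate 2, GS replicate 3 and Control replicate 3 deviated from their groups in the same direction across genes, with correlations between their deviations of 0.74 to 0.83, so values are also given from a fit to the other 9 arrays. These 3 arrays were picked from the values of all genes, members included. Most members were lowest within their group on these arrays, and no GBS array was left out. Olfactory and vomeronasal receptor genes, which serve here as a gauge of the dim end of the arrays, had their highest median within the group on each of the 3 arrays, at 5.35 on GB replicate 2, 5.23 on GS replicate 3 and 5.23 on Control replicate 3. Their medians ran 4.84 to 4.92 on the GBS arrays, 4.88 to 5.23 on the GS arrays, 5.02 to 5.35 on the GB arrays and 5.12 to 5.23 on the Control arrays. The part of this difference in the results below was not tested beyond a fit with this median as a covariate, given with the other settings. The GBS arrays overlap neither the Control arrays nor the GB arrays in this median. That fit therefore cannot tell this median apart from genotype in GBS against Control or in GBS against GB.

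Of the 37 synaptic genes, 8 were called lower in GBS forebrain than in Control forebrain, which is 21.6% against 4.35% of all genes, and 0 were called higher, against 11% of all genes (15.3% in either direction). The 8 were the calcium/calmodulin kinase subunit Camk2b, the postsynaptic scaffold Shank1, the glutamate transporter Slc17a7, the complexin Cplx1, the vesicle GTPase Rab3a, its effector Rph3a, the SNARE Stx1a and the calcium sensor Vsnl1. The fitted difference was below 0 for 32 of the 37, with a median of -0.36, against -0.10 over all genes tested. The GBS arrays all lay below the Control arrays for 23 genes (62.2%, against 35.7% of all genes). They all lay above them for 2 genes, Sv2b and Syt11 (5.41%, against 28.8% of all genes). The count of 8 became 21 without GB replicate 2, where 20.2% of all genes were called lower. It became 5 without GBS replicate 1 (3.21% of all genes), 4 without Control replicate 2 (1.18%) and 3 without any of Control replicate 1 (0.803%), Control replicate 3 (0.937%) and GBS replicate 2 (0.549%). In bulk tissue, fewer neurons and less synaptic RNA per neuron cannot be told apart.

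**Figure D1:**
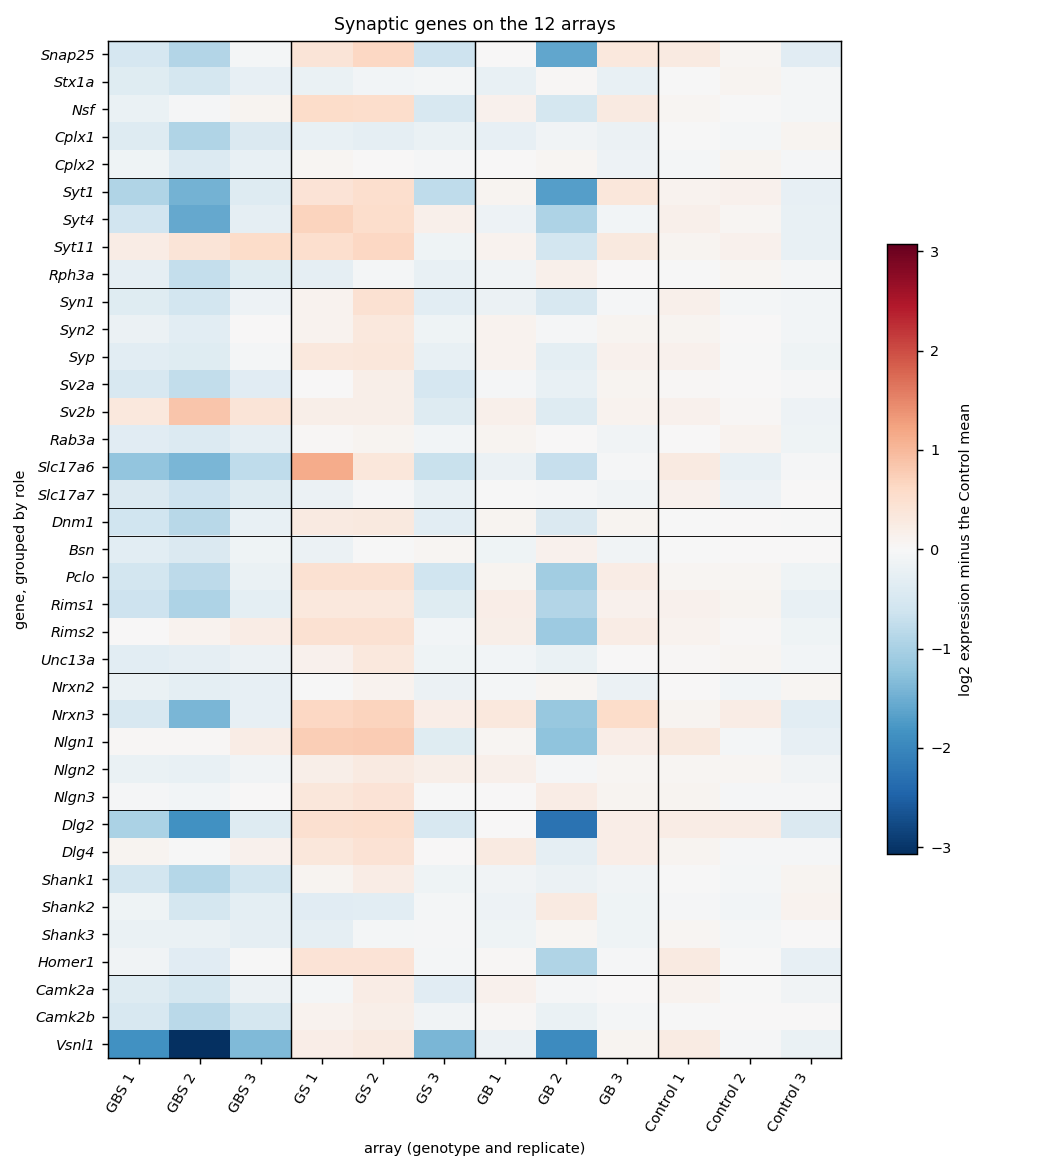
Log2 expression minus the Control mean for the 37 synaptic genes (rows, grouped by role) on each of the 12 arrays (columns, GBS, GS, GB and Control with replicates 1 to 3), with blue below and red above the Control mean. Blue fills most of the GBS columns, deepest for Vsnl1, and it also marks GB replicate 2 and GS replicate 3, while Sv2b and Syt11 are red on all 3 GBS arrays.

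**Figure D2:**
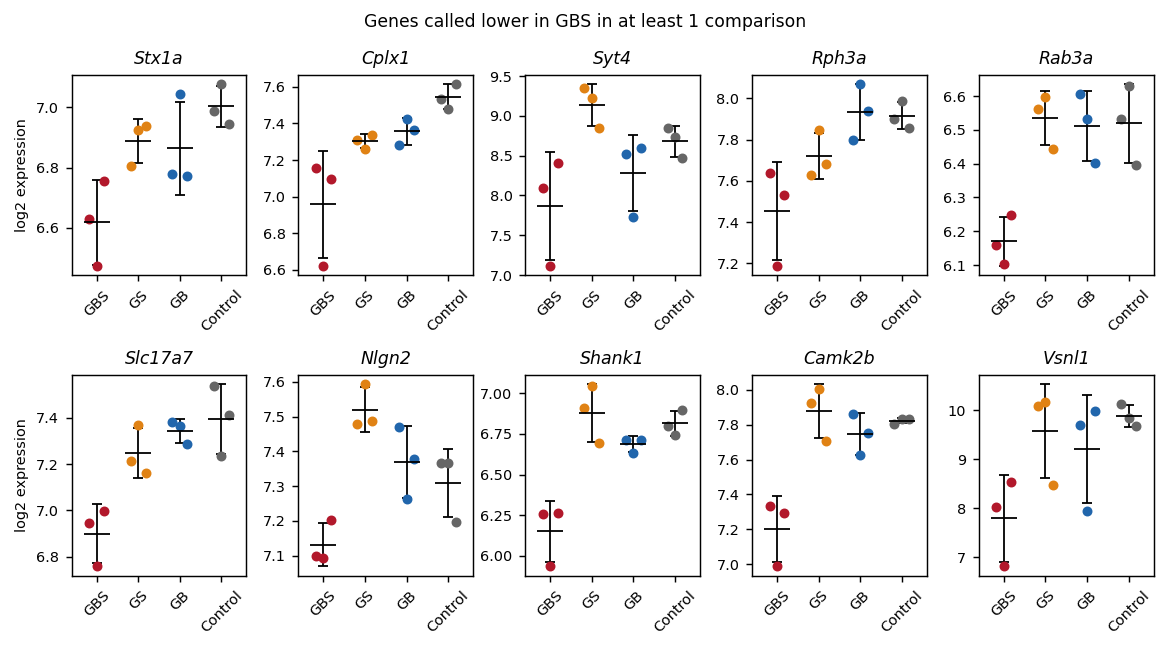
Log2 expression of the 10 genes called lower in GBS in at least 1 comparison, with a point for each array, a bar for the group mean and whiskers for the SD (n = 3). The y axes do not start at 0 and differ between panels. The 3 GBS points of Camk2b and of Shank1 lie below all 9 others, while Vsnl1 and Syt4 spread widely within groups.

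Promoter sequence was looked at because 8 members were called lower together, but the shares below cover all members with a promoter held, not those 8. RefSeq promoters on GRCm38.p6, 250 bases before to 50 bases after each annotated start, were held for 29 of the 38 genes and for 27025 genes in all. The GC box (GGGCGG on either strand), the binding motif of Sp1-type activators, matched 22 of the 29 genes (75.9%), against 38.2% of all genes. The left part of the REST motif (TTCAGCACC), which is bound by the repressor that keeps neuronal genes off outside neurons, matched 3 genes, Nlgn1, Syn1 and Unc13a (10.3%, against 0.433% of all genes), and its right part (GACAGCGCC) matched 1, Unc13a (3.45%, against 0.392%). Beside these, the cyclic AMP response element (TGACGTCA) matched 1 gene, Syn1 (3.45%, against 2.03%), and a TATA box (TATAAA) matched 2, Sv2b and Dlg2 (6.9%, against 15.7%). For the pathways that the alleles switch on, a GLI motif (GACCACCCA) matched 0 genes (against 0.289%) and a TCF/LEF motif (ATCAAAG) matched 2, Sv2b and, at its second annotated start, Vsnl1 (6.9%, against 4.29%). All motifs were searched on both strands, and a match describes letters in this window only. A gene with several annotated starts counted as matched if any of them matched, and numbers of starts were not compared. The 27025 genes were not limited to those tested on the arrays. Nlgn1, Syn1 and Unc13a were not among the 8 called, and no promoter was held for Shank1, which was.

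Stretches are printed for 4 members that the results turn on or the motifs mark, each ending at the last base before the annotated start and reading toward it in the direction of transcription. Camk2b (chr11:6065749-6065828, minus strand) is shown as a gene called lower in every GBS comparison, Slc17a7 (chr7:45163841-45163920, plus strand) as the transporter called lower in GBS, and Vsnl1 (chr12:11436579-11436678, minus strand, at its first start) as the gene with the lowest difference. Syn1 (chrX:20920919-20921168, minus strand) is shown for its REST and cyclic AMP motifs. Capitals mark GC boxes in the first 3 and, in Syn1, the REST part and then the cyclic AMP element. Adjoining GC boxes share 1 base in Camk2b and in Slc17a7.
Camk2b: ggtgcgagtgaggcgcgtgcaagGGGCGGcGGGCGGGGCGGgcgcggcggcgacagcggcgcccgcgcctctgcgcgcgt
Slc17a7: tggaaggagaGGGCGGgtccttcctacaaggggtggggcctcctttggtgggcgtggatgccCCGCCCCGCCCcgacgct
Vsnl1: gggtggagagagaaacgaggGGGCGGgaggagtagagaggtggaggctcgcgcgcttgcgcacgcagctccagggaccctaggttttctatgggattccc
Syn1: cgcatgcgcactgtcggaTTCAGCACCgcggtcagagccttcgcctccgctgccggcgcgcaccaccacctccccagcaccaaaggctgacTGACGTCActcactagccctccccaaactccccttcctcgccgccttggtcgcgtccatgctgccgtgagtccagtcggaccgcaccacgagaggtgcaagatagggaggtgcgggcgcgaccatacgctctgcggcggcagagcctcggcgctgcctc
The Camk2b and Slc17a7 stretches hold 3 GC boxes each and the Vsnl1 stretch 1.

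Among the 5 genes of the fusion machinery with a value, Stx1a and Cplx1 were called lower in GBS than in Control. Stx1a, the membrane SNARE syntaxin, read 6.63, 6.47 and 6.75 on the GBS arrays, 6.80, 6.92 and 6.94 on the GS arrays, 6.78, 7.04 and 6.77 on the GB arrays and 6.99, 7.08 and 6.95 on the Control arrays. All 3 GBS arrays lay below all the others, including the GS and GB arrays. The GBS minus Control difference was -0.39 (SE 0.105, adjusted p = 0.0337), 1.31-fold lower. Cplx1, a complexin that clamps and primes the SNARE complex, read 7.16, 6.62 and 7.10 on the GBS arrays, 7.31, 7.26 and 7.34 on the GS arrays, 7.28, 7.43 and 7.36 on the GB arrays and 7.54, 7.48 and 7.62 on the Control arrays. GBS replicate 2 was the lowest, and the GBS arrays lay below all the others. Its difference was -0.59 (SE 0.128, adjusted p = 0.0138), 1.5-fold lower. Leaving out Control replicate 3 ended the call of Cplx1, and leaving out any of GBS replicates 1 and 2, GS replicate 2 or the 3 Control arrays ended that of Stx1a (adjusted p up to 0.079 and 0.239 over all settings). Cplx2, the other complexin, averaged 7.25 ± 0.15 in GBS and 7.51 ± 0.082 in Control and was not called, with a difference of -0.26 (adjusted p = 0.096).

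The other fusion genes were not called in this comparison. Snap25, the second SNARE of the plasma membrane, averaged 9.17 ± 0.41 in GBS, 9.78 ± 0.68 in GS, 9.24 ± 1.02 in GB and 9.66 ± 0.32 in Control (SD, n = 3 each). Its difference from Control was -0.49 (adjusted p = 0.406) over 12 arrays and -0.66 (adjusted p = 0.0226) over 9 arrays. Nsf, the ATPase that takes spent SNARE complexes apart, averaged 7.16 ± 0.15 in GBS and 7.21 ± 0.048 in Control, with a difference of -0.051 (adjusted p = 0.886), or 0.022 with arrays centred on their medians.

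Of the 4 synaptotagmin and rabphilin genes, Rph3a was called lower in GBS than in Control, and Syt11 lay above Control without being called. Rph3a, rabphilin, which binds Rab3 and calcium, read 7.64, 7.19 and 7.53 on the GBS arrays, 7.63, 7.85 and 7.68 on the GS arrays, 7.80, 8.07 and 7.94 on the GB arrays and 7.90, 7.99 and 7.86 on the Control arrays. The GBS arrays lay below all the GB and Control arrays, while GBS replicate 1 overlapped the GS arrays. The difference was -0.46 (SE 0.125, adjusted p = 0.0329), 1.38-fold lower. Leaving out GBS replicate 2 or 3 or any Control array ended the call (adjusted p up to 0.168 over all settings). Syt1, the sensor of fast release, read 8.39, 7.86 and 8.92 on the GBS arrays, 9.74, 9.84 and 8.55 on the GS arrays, 9.40, 7.63 and 9.67 on the GB arrays and 9.43, 9.45 and 9.07 on the Control arrays. All 3 GBS arrays lay below the Control arrays, but GB replicate 2 was lower than any GBS array. The difference of -0.93 (SE 0.509, adjusted p = 0.182) was not called, and over 9 arrays it was -1.05 (adjusted p = 0.00512).

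Syt4, a synaptotagmin of dense-core and postsynaptic vesicles, read 8.09, 7.11 and 8.41 on the GBS arrays, 9.35, 9.22 and 8.85 on the GS arrays, 8.52, 7.73 and 8.60 on the GB arrays and 8.85, 8.73 and 8.47 on the Control arrays. The GBS arrays lay below the Control arrays, with a difference of -0.81 (SE 0.319, adjusted p = 0.0972), and GBS replicate 2 was the lowest array of all. Syt11, a synaptotagmin that does not bind calcium and acts in vesicle retrieval, read 7.97, 8.13 and 8.31 on the GBS arrays, 8.27, 8.39 and 7.60 on the GS arrays, 7.85, 7.17 and 8.04 on the GB arrays and 7.83, 7.89 and 7.53 on the Control arrays. Here the GBS arrays lay above the Control arrays and within the range of the GS arrays. The difference of 0.39 (SE 0.245, adjusted p = 0.228) was not called, and it was -0.30 with the receptor gene median as a covariate.

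Of the 8 vesicle proteins and transporters, Slc17a7 and Rab3a were called lower in GBS than in Control. Slc17a7 loads glutamate into vesicles, chiefly in the cortex, and read 6.94, 6.76 and 7.00 on the GBS arrays, 7.21, 7.37 and 7.16 on the GS arrays, 7.38, 7.36 and 7.29 on the GB arrays and 7.54, 7.24 and 7.41 on the Control arrays. All 3 GBS arrays were below all 9 others. The difference was -0.50 (SE 0.105, adjusted p = 0.0123), 1.41-fold lower. Rab3a, a GTPase on the vesicle that helps it dock, read 6.16, 6.10 and 6.25 on the GBS arrays, 6.56, 6.60 and 6.44 on the GS arrays, 6.60, 6.53 and 6.40 on the GB arrays and 6.53, 6.63 and 6.39 on the Control arrays. The GBS arrays were again below all 9 others, and the difference was -0.35 (SE 0.0941, adjusted p = 0.0327), 1.27-fold lower. The call of Slc17a7 ended without Control replicate 1, Control replicate 3 or GBS replicate 2, and that of Rab3a without GBS replicate 1 or 2 or Control replicate 1 or 2 (adjusted p up to 0.0582 and 0.13 over all settings). Slc17a6, the glutamate transporter typical of subcortical neurons, read 5.87, 5.68 and 6.30 on the GBS arrays, 8.23, 7.43 and 6.41 on the GS arrays, 6.90, 6.37 and 7.04 on the GB arrays and 7.36, 6.86 and 7.04 on the Control arrays. The GBS arrays lay below all the others, while the GS arrays ranged widely. Its difference, -1.14 (SE 0.376, adjusted p = 0.0633), was 2.2-fold lower and not called over 12 arrays, and was -1.16 (adjusted p = 0.0037) over 9.

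Sv2b, a vesicle glycoprotein, was higher on every GBS array than on every other array. It read 7.55, 8.06 and 7.61 on the GBS arrays, 7.39, 7.41 and 6.82 on the GS arrays, 7.36, 6.82 and 7.33 on the GB arrays and 7.34, 7.24 and 7.06 on the Control arrays. The difference of 0.52 (SE 0.203, adjusted p = 0.0948) was not called over 12 arrays and was called higher over 9, at 0.44 (adjusted p = 0.0229), but was -0.0075 with the receptor gene median as a covariate. Its close relative Sv2a lay on the other side of 0, with means of 7.18 ± 0.20 in GBS and 7.71 ± 0.040 in Control and a difference of -0.53 (adjusted p = 0.0539), which over 9 arrays was -0.55 (adjusted p = 0.00401). The synapsins Syn1 and Syn2, which tether vesicles to each other, differed by -0.36 (adjusted p = 0.176) and -0.17 (adjusted p = 0.31). Syp, synaptophysin, an abundant membrane protein of the vesicle, averaged 7.63 ± 0.17 in GBS and 7.88 ± 0.13 in Control, a difference of -0.26 (adjusted p = 0.26). The 3 GBS arrays of Syn1 lay below the Control arrays, while those of Syn2 and Syp overlapped them.

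Dnm1, the dynamin that pinches vesicles off for reuse, averaged 7.51 ± 0.31 in GBS and 8.08 ± 0.010 in Control. Its GBS arrays lay below the Control arrays, with a difference of -0.57 (adjusted p = 0.0824) that was called over 9 arrays, at -0.57 (adjusted p = 0.0101). No gene of the active zone was called over 12 arrays. The large scaffolds Bsn and Pclo differed by -0.30 (adjusted p = 0.0794) and -0.52 (adjusted p = 0.258), the priming factor Unc13a by -0.26 (adjusted p = 0.133), and the Rab3-binding scaffold Rims1 by -0.62 (adjusted p = 0.144). GBS arrays lay below Control arrays for all 4 of these, and all 4 were called lower over 9 arrays. Rims2, the close relative of Rims1, read 8.28, 8.36 and 8.48 on the GBS arrays, 8.74, 8.72 and 8.17 on the GS arrays, 8.44, 7.16 and 8.49 on the GB arrays and 8.37, 8.30 and 8.12 on the Control arrays. Its GBS arrays overlapped the Control arrays, GB replicate 2 stood far below the rest, and the difference was 0.11 (adjusted p = 0.777), or -0.12 after quantile normalization. Unc13a had 3 probe sets of its own, and the other 2 gave -0.10 and -0.20, below 0 like the one used.

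Adhesion genes showed the smallest median difference of the roles with more than 1 gene, at -0.18, and none was called lower or higher than Control over 12 arrays. Nlgn2, the neuroligin of inhibitory synapses, read 7.10, 7.09 and 7.20 on the GBS arrays, 7.48, 7.59 and 7.49 on the GS arrays, 7.47, 7.26 and 7.38 on the GB arrays and 7.37, 7.37 and 7.20 on the Control arrays. Its GBS arrays lay below the GS and GB arrays and overlapped the Control arrays, with a difference from Control of -0.18 (SE 0.0888, adjusted p = 0.155). Nlgn1, the neuroligin of excitatory synapses, read 7.93, 7.93 and 8.14 on the GBS arrays, 8.64, 8.68 and 7.53 on the GS arrays, 7.96, 6.65 and 8.11 on the GB arrays and 8.21, 7.85 and 7.64 on the Control arrays. Its GBS arrays lay within the Control range, with a difference of 0.10 (adjusted p = 0.838), or -0.059 after quantile normalization. Nlgn3 averaged 7.79 ± 0.041 in GBS and 7.82 ± 0.082 in Control and differed by -0.035 (adjusted p = 0.816), or by 0.038 with arrays centred on their medians. Of the neurexins, their presynaptic partners, Nrxn3 averaged 8.20 ± 0.60 in GBS and 8.91 ± 0.28 in Control, a difference of -0.71 (adjusted p = 0.205), and Nrxn2 differed by -0.26 (adjusted p = 0.0954). The GBS arrays of Nrxn2 lay below the Control arrays, and those of Nrxn3 overlapped them. Over 9 arrays Nrxn3 was called lower, at -0.87 (adjusted p = 0.0203).

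Shank1 was the postsynaptic scaffold called lower in GBS. It links receptor complexes to the actin skeleton, and read 6.26, 5.93 and 6.26 on the GBS arrays, 6.91, 7.04 and 6.69 on the GS arrays, 6.71, 6.63 and 6.72 on the GB arrays and 6.80, 6.75 and 6.90 on the Control arrays. Each GBS array lay below each of the 9 others. The difference was -0.66 (SE 0.116, adjusted p = 0.00507), 1.58-fold lower. Shank1 was called lower than Control under all 23 other settings that gave it a value. Its relatives Shank2 and Shank3 differed by -0.32 (adjusted p = 0.128) and -0.23 (adjusted p = 0.0989), with GBS arrays below Control arrays in both. The other 2 probe sets of Shank2 gave -0.40 and -0.30, beside -0.32 from the one used.

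Dlg2 and Dlg4, membrane-associated guanylate kinases that anchor glutamate receptors, had differences of opposite sign over 12 arrays. Dlg2 read 8.24, 7.33 and 8.81 on the GBS arrays, 9.70, 9.72 and 8.72 on the GS arrays, 9.21, 6.93 and 9.42 on the GB arrays and 9.43, 9.42 and 8.76 on the Control arrays. GB replicate 2 was the lowest array of all, and GBS replicate 3 was above Control replicate 3. The difference was -1.08 (SE 0.603, adjusted p = 0.19) over 12 arrays and -1.30 (adjusted p = 0.00742) over 9. Dlg4 read 7.37, 7.26 and 7.42 on the GBS arrays, 7.62, 7.73 and 7.28 on the GS arrays, 7.55, 7.00 and 7.49 on the GB arrays and 7.35, 7.24 and 7.24 on the Control arrays. The groups overlapped, with a difference of 0.072 (adjusted p = 0.711), or -0.29 with the receptor gene median as a covariate. Homer1, which couples metabotropic receptors to Shank, averaged 7.20 ± 0.17 in GBS and 7.36 ± 0.28 in Control and differed by -0.16 (adjusted p = 0.604).

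The calcium signalling genes held the lowest difference and the call with the next to lowest adjusted p of the list. Camk2b, a subunit of the kinase that shapes synaptic strength and binds actin, read 7.33, 6.99 and 7.29 on the GBS arrays, 7.92, 8.01 and 7.71 on the GS arrays, 7.86, 7.62 and 7.75 on the GB arrays and 7.81, 7.83 and 7.83 on the Control arrays. Every GBS array was below every other array and the Control arrays hardly differed from each other. The difference was -0.62 (SE 0.116, adjusted p = 0.00692), 1.54-fold lower. The call held under all 24 other settings. Camk2a, the partner subunit that becomes abundant after birth, averaged 6.72 ± 0.18 in GBS and 7.09 ± 0.11 in Control, with GBS arrays below Control arrays and a difference of -0.37 (adjusted p = 0.0969). Vsnl1, a neuronal calcium sensor of the visinin family, read 8.03, 6.81 and 8.53 on the GBS arrays, 10.09, 10.17 and 8.48 on the GS arrays, 9.70, 7.95 and 9.98 on the GB arrays and 10.13, 9.84 and 9.68 on the Control arrays. All GBS arrays were below the Control arrays, but GS replicate 3 and GB replicate 2 fell within the GBS range. The difference was -2.09 (SE 0.604, adjusted p = 0.0409), 4.27-fold lower, and over 9 arrays it was -2.19 (adjusted p = 0.00119). It lost its call without any of GBS replicates 1 and 2, GS replicates 1 and 2, GB replicate 1 or the 3 Control arrays (adjusted p up to 0.182 over all settings).

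**Figure D3:**
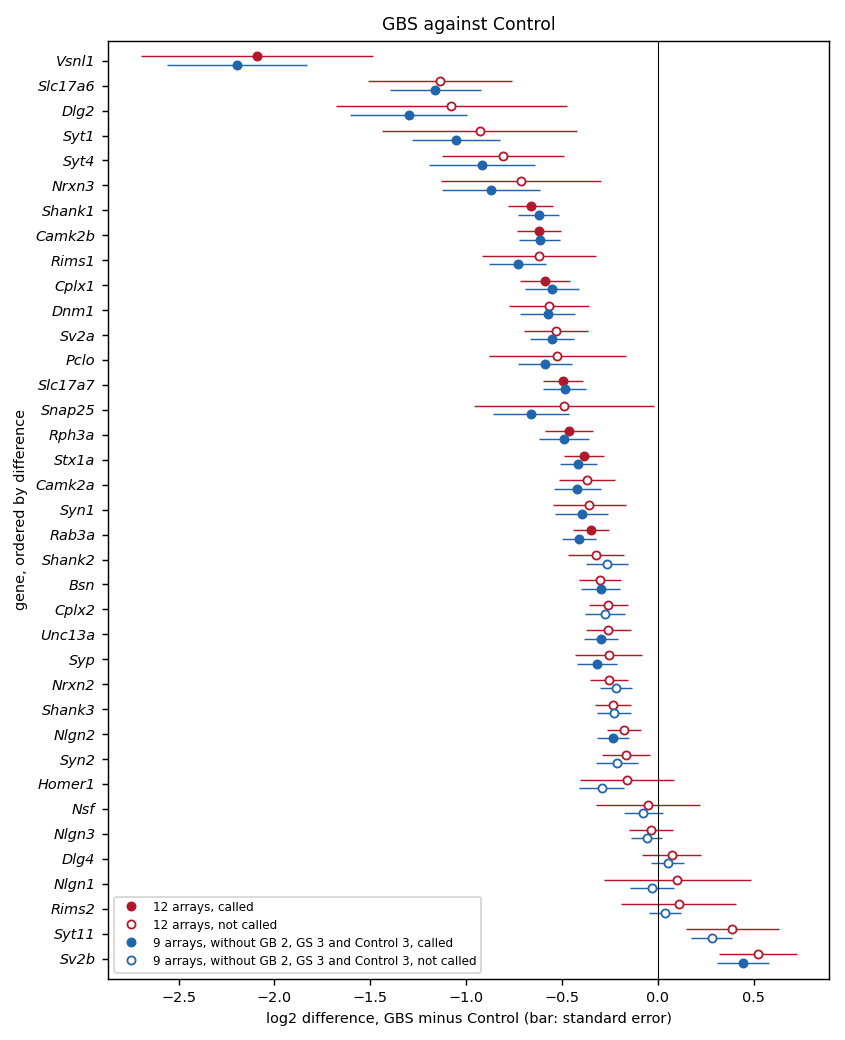
Log2 difference, GBS minus Control, for each of the 37 genes (points) with its standard error (bars), from the fit to 12 arrays (red) and to the 9 arrays without GB replicate 2, GS replicate 3 and Control replicate 3 (blue). Filled points passed an adjusted p of 0.05. The differences keep their sign between the fits for all genes but Nlgn1, the bars of Dlg2, Syt1 and Snap25 shorten, and 24 genes are filled on the lower side in blue against 8 in red.

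The size of a difference and its call did not go together, and the spread between arrays differed widely from gene to gene. The pooled standard deviation within groups was 0.137 for Camk2b, 0.136 for Shank1 and 0.0951 for Rab3a, against a median of 0.167 over all genes tested. It was 0.859 for Vsnl1, 0.857 for Dlg2, 0.721 for Syt1 and 0.665 for Snap25, which put these 4 genes between the 97.9 and 99.8 percentiles of all genes. Within a group, most members were low on the same array. GBS replicate 2 was the lowest GBS array for 31 of the 37 genes, GS replicate 3 the lowest GS array for 30, Control replicate 3 the lowest Control array for 27 and GB replicate 2 the lowest GB array for 26.

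**Figure D4:**
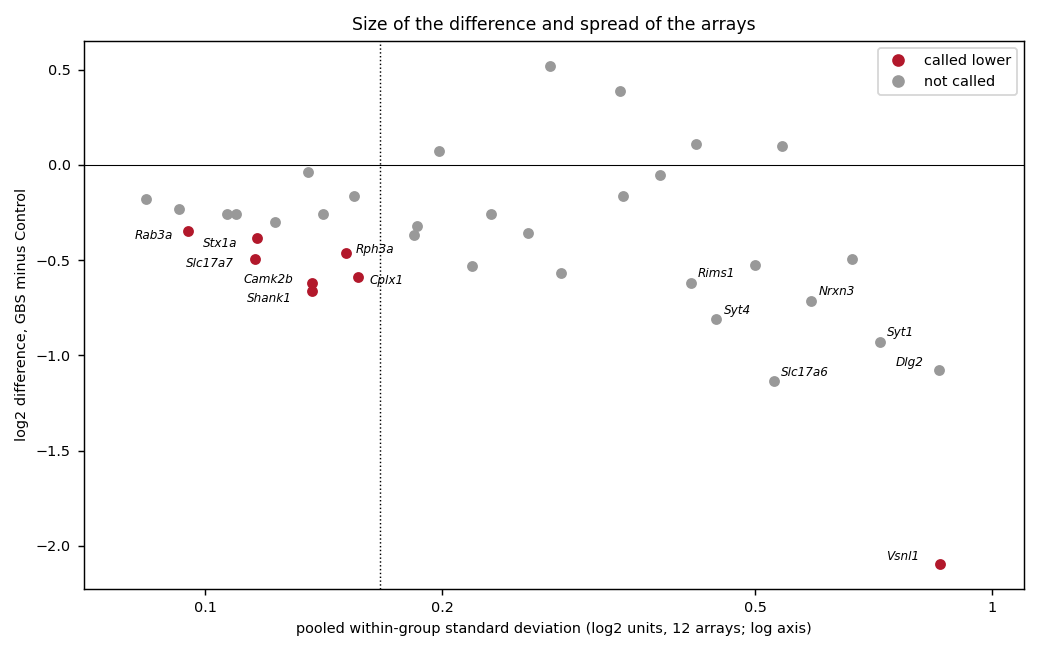
Log2 difference, GBS minus Control (y axis), against the pooled standard deviation within groups (x axis, log2 units, log axis) for the 37 genes, with genes called lower over 12 arrays in red and a dotted line at the median spread of all genes tested, 0.167. Of the 8 genes called, 7 lie left of the dotted line and Vsnl1 lies far to its right, while Slc17a6, Dlg2 and Syt1 have larger differences than those 7 and were not called.

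Without the 3 arrays that deviated together, 24 genes were called lower in GBS than in Control (64.9%, against 18.9% of all genes), and Sv2b was called higher (against 23.5% of all genes). All 8 genes called over 12 arrays were among the 24. Camk2b then differed by -0.62 (adjusted p = 0.00159) and Shank1 by -0.62 (adjusted p = 0.00149), so their sizes moved little. Pclo, Rims1 and Dnm1 were among those gained, at -0.59 (adjusted p = 0.00804), -0.73 (adjusted p = 0.00363) and -0.57 (adjusted p = 0.0101). This fit rests on 3 GBS arrays and 2 arrays of each other genotype.

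GBS tumor tissue carries both alleles, so the next comparisons set it against forebrain with 1 of them. Against GS, 4 genes were called lower (10.8%, against 1.51% of all genes) and 0 higher (against 3.56%, and 5.07% in either direction). They were Shank1, at -0.73 (SE 0.116, adjusted p = 0.00577), Camk2b, at -0.68 (SE 0.116, adjusted p = 0.00836), Nlgn2, at -0.39 (SE 0.0888, adjusted p = 0.0316), and Syt4, at -1.27 (SE 0.319, adjusted p = 0.0467). For all 4, every GBS array lay below every GS array. Syt4 was 2.41-fold lower and the other 3 between 1.31-fold and 1.66-fold lower. The median over the 37 genes was -0.36, against -0.03 over all genes. The count of 4 became 11 without GB replicate 2 (against 4.09% of all genes), 7 without GS replicate 3 (2.33%), and 2 without any of GBS replicates 1 and 2, GS replicates 1 and 2 or Control replicates 1 and 2 (0.317% to 0.874%). Sv2b was higher on every GBS array than on every GS array, at 0.53 (adjusted p = 0.178), the only such gene of the 37 (against 16.5% of all genes), while 13 genes had every GBS array below every GS array (35.1%, against 12.4%). Over 9 arrays 28 genes were called lower (75.7%, against 8.77% of all genes), all 4 above among them. They included Slc17a6 at -1.87 (adjusted p = 0.000568), Nlgn1 at -0.66 (adjusted p = 0.00317) and Nsf at -0.60 (adjusted p = 0.00243), while in the same fit the differences of Nlgn1 and Nsf from Control were -0.030 and -0.075.

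Against GB, 5 genes were called lower (13.5%, against 3.12% of all genes) and 0 higher (against 9.6%, and 12.7% in either direction). Camk2b differed by -0.54 (SE 0.116, adjusted p = 0.0167) and Shank1 by -0.53 (SE 0.116, adjusted p = 0.0176). Slc17a7 differed by -0.44 (SE 0.105, adjusted p = 0.0247), Rph3a by -0.48 (SE 0.125, adjusted p = 0.034) and Rab3a by -0.34 (SE 0.0941, adjusted p = 0.0414). The GBS arrays lay below the GB arrays for all 5 and for 15 genes in all (40.5%, against 23.7% of all genes), and above them for Sv2b (against 24.2%). The median over the 37 genes was -0.27, against -0.11 over all genes. The count of 5 became 0 without GBS replicate 2 (against 0.176% of all genes) and 3 without GBS replicate 3, GB replicate 1, Control replicate 1 or Control replicate 2 (1.14% to 2.05%). Vsnl1 differed by -1.42 (adjusted p = 0.106) and was not called, with GB replicate 2 inside the GBS range. Over 9 arrays 18 genes were called lower (48.6%, against 7.09%), including all 5, and 0 higher (against 17.1%).

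Across the 3 GBS comparisons, 10 of the 37 genes were called lower at least once, and 2, Camk2b and Shank1, were called lower in all 3. The comparisons share the GBS arrays and are not independent of each other. The female-specific RNA Xist read between 8.66 and 10.83 on GS replicates 2 and 3 and GB replicates 2 and 3 and at most 5.02 on the other 8 arrays. Xist thus differed between arrays within GS and within GB, while all GBS and Control arrays were low. With Xist as a covariate 0 of the 37 genes were called lower against GS and 0 against GB, where 0.12% and 0.113% of all genes were. The members' medians in that fit were -0.41 against GS and -0.29 against GB, and Camk2b and Shank1 had adjusted p values of up to 0.0614 and 0.0626 against GS and up to 0.12 and 0.112 against GB over all settings tried.

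In neither single-allele genotype was a synaptic gene called against Control. In GS, 0 of the 37 were called in either direction (background 0.0211% of all genes), and at an unadjusted p under 0.05 limma gave 1 higher and 0 lower. The share of all genes at that unadjusted p was not counted, in GS or in GB. The median was 0.08, against -0.02 over all genes. The GS arrays lay below the Control arrays for Stx1a, Cplx1 and Rph3a (3 genes, 8.11%, against 9.43% of all genes), with differences of -0.12, -0.24 and -0.20. They lay above them for Nlgn2 (1 gene, 2.7%, against 8.09% of all genes), at 0.21 (adjusted p = 0.645). Over 9 arrays, 6 genes were called higher in GS (16.2%, against 9.86% of all genes) and 0 lower. These were Nlgn1 at 0.63 (adjusted p = 0.0172), Nsf at 0.52 (adjusted p = 0.019), Syt11 at 0.47 (adjusted p = 0.032), Rims2 at 0.40 (adjusted p = 0.0254), Dlg4 at 0.38 (adjusted p = 0.0319) and Nlgn3 at 0.36 (adjusted p = 0.0315). On GS replicate 3, left out of that fit, Nlgn1, Nsf and Rims2 read 7.53, 6.71 and 8.17, below the Control means of 7.90, 7.21 and 8.26.

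In GB, 0 genes were called in either direction over 12 arrays (background 0% of all genes) or over 9 (background 0.176% higher and 0.00704% lower), and at an unadjusted p under 0.05 limma gave 0 higher and 0 lower. The median was -0.08, against 0.00 over all genes. The lowest differences, Dlg2 at -0.69 and Vsnl1 at -0.67, became -0.11 and -0.15 without GB replicate 2 and Control replicate 3. The GB arrays lay below the Control arrays for Cplx1 and Shank1 (2 genes, 5.41%, against 1.09% of all genes), at -0.19 and -0.13, and above them for 0 genes (against 3.01%).

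Whether the effect of both alleles together differed from the sum of the single effects was tested as an interaction, in which GBS minus GS is set against GB minus Control. Control mice had no Cre, so GB minus Control also holds any effect of Cre, while GBS minus GS does not. The interaction cannot tell such an effect apart from that of the alleles. Over 12 arrays 0 genes were called (background 0.331% of all genes, 0.00704% lower), and at an unadjusted p under 0.05 limma gave 5 lower and 0 higher. The share of all genes at that unadjusted p was not counted, so the 5 have no background beside them. The lowest adjusted p values were those of Camk2b, at -0.60 (SE 0.165, adjusted p = 0.265), Shank1, at -0.60 (SE 0.165, adjusted p = 0.265), and Nlgn2, at -0.45 (SE 0.126, adjusted p = 0.271). The median was -0.30, against -0.03 over all genes. Over 9 arrays, 10 genes were called lower (27%, against 2.06% of all genes) and 0 higher (against 0.845%). They were Camk2b at -0.75 (adjusted p = 0.0391), Shank1 at -0.76 (adjusted p = 0.0363), Nsf at -0.78 (adjusted p = 0.0252), Pclo at -1.08 (adjusted p = 0.0268) and Slc17a6 at -1.73 (adjusted p = 0.0328), with Dlg4, Dnm1, Nrxn3, Rims1 and Syt1 at adjusted p values between 0.0426 and 0.0493.

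Other synaptic genes, from 2 lists of names that leave out the 38, were also among the genes called lower in GBS. Of 41 other presynaptic genes tested, 11 were called lower in GBS than in Control and 1 higher, against 4.35% and 11% of all genes, with a median of -0.30. Those with the lowest adjusted p were the synapsin Syn3 (-0.68, adjusted p = 0.0082) and the synaptotagmins Syt10 (-0.60, adjusted p = 0.00844), Syt9 (-0.31, adjusted p = 0.0279) and Syt5 (-0.48, adjusted p = 0.0285). Cadps, which primes dense-core vesicles, was the gene called higher (1.73, adjusted p = 0.045). Of 29 other postsynaptic genes tested, 7 were called lower and 2 higher, beside the same shares of all genes, with a median of -0.23. The scaffolds Dlgap4 (-0.40, adjusted p = 0.0166) and Dlgap2 (-0.36, adjusted p = 0.0167), the exchange factor Iqsec1 (-0.35, adjusted p = 0.0176) and the adhesion gene Lrrc4b (-0.32, adjusted p = 0.0248) had the lowest adjusted p. Sipa1l1 (0.55, adjusted p = 0.0126) and Dlg1 (1.04, adjusted p = 0.0332), a relative of Dlg2 and Dlg4 that is also found outside neurons, were the 2 called higher. Against GS, 5 presynaptic and 0 postsynaptic genes of these lists were called lower (1.51% of all genes), against GB 6 and 2 (3.12%), and 0 were called higher in either.

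Markers of cell types were counted beside the synaptic genes, against the 4.35% of all genes called lower in GBS than in Control and the 11% called higher. Of 12 pan-neuronal genes, 3 were called lower in GBS than in Control and 0 higher, with a median of -0.50. Their summed level on the linear scale was 4299 to 6998 on the GBS arrays, 6341 to 11009 on the GS arrays, 3206 to 8264 on the GB arrays and 6642 to 8479 on the Control arrays. The GBS range overlaps the Control range, and the lowest sum of all is on a GB array. Of 9 proliferation genes tested, 7 were called higher and 0 lower, with a median of 2.29 and sums of 2856 to 5485 in GBS, 1303 to 1818 in GS, 876 to 1090 in GB and 908 to 1012 in Control. Of 9 radial glia and progenitor genes tested, 5 were called higher and 1 lower, with a median of 0.56 and sums over the 10 listed of 3183 to 3570 in GBS, 3240 to 4244 in GS, 1901 to 3053 in GB and 2925 to 3406 in Control. The proliferation sums of GBS stood apart from all other arrays, while the progenitor sums overlapped. The median level of the progenitor list did not overlap. It was 7.92 to 8.09 on the GBS arrays, 7.44 to 7.68 in GS, 7.15 to 7.35 in GB and 7.21 to 7.27 in Control. The part of these cell types in the synaptic differences was not tested.

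The remaining marker lists were counted in the same comparison. Among astrocyte genes 1 of 5 tested was called higher and 1 lower, among oligodendrocyte lineage genes 0 of 6 higher and 2 lower, and among microglia and among endothelium and pericyte genes 0 of 4 and 0 of 6 in either direction. The summed level of the 6 oligodendrocyte lineage genes was 567 to 654 on the GBS arrays, 782 to 819 on the GS arrays, 720 to 924 on the GB arrays and 813 to 853 on the Control arrays. That of the 6 microglia genes was 546 to 588 in GBS and 664 to 707 in Control, and that of the 6 astrocyte genes 655 to 701 in GBS and 564 to 602 in Control. The median level of the astrocyte list was 6.00 to 6.11 on the GBS arrays and 6.41 to 6.46 on the Control arrays, so its sum and its median differ in direction. For the oligodendrocyte and microglia lists both the sum and the median were lower on every GBS array than on every Control array. RMA gives no zero, so no marker can be read as absent. Forebrain identity genes, which check the labelled tissue, all passed the filter for the 6 with a probe set, and 2 were called higher and 2 lower. Of 6 midbrain and hindbrain genes 4 passed it, with 0 called.

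**Figure D5:**
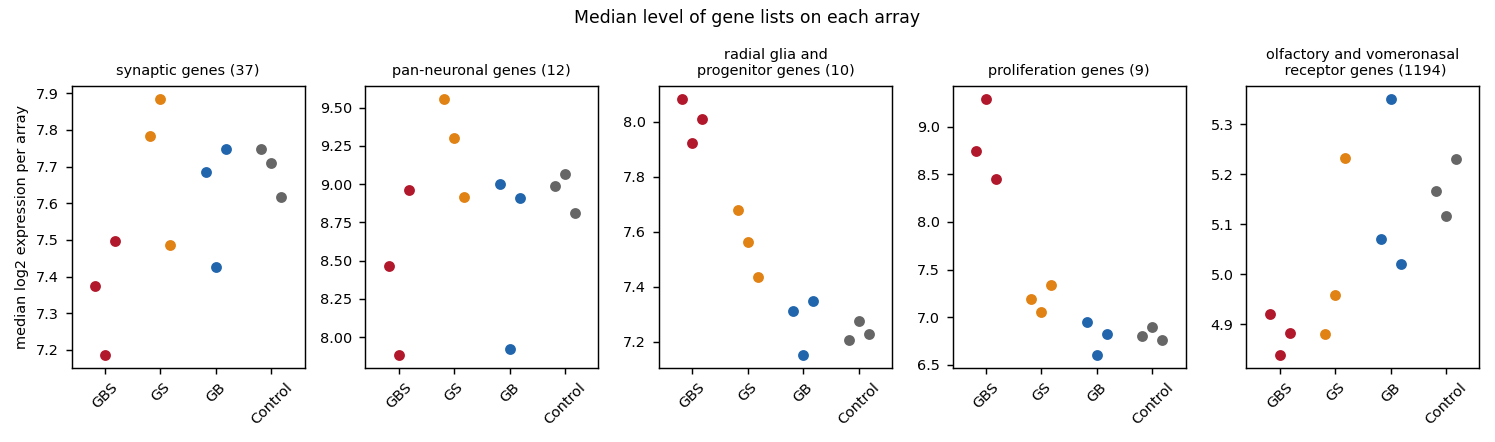
Median log2 expression of 5 gene lists on each array, with a point per array and the genotypes GBS, GS, GB and Control from left to right; each panel has its own y axis, which does not start at 0. The GBS medians of the synaptic genes lie between 7.19 and 7.50, against 7.62 to 7.75 in Control. The lowest GS and GB points of that panel are GS replicate 3 and GB replicate 2, which are also the highest of their groups for receptor genes.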

How the data were processed

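The deposited table holds log2 values for 12 arrays that the authors made with RMA in Expression Console from Affymetrix, per the submitters' processing notes. The software version, probe set library and genome build were not given in the sources used here. Values ran from 2.82 to 13.83. Per the labels' protocols, total RNA was extracted with Trizol and biotin-labelled. The labels call the 3 samples of each group biological replicates.

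Of 35556 probe sets, 21789 had a single gene symbol in GEO's platform annotation, and 21698 of these were updated through RefSeq's gene table (GRCm38.p6), giving 19938 genes. The probe set with the highest mean was kept for each gene, and a gene was tested where it passed the 40th percentile of its array on at least 3 arrays. No further normalization was applied. limma 3.58.1 in R 4.3.3 (lmFit and eBayes, two-sided) fitted 1 mean per group to all 12 arrays, for 6 contrasts. Adjusted p values are from this fit unless 9 arrays are named, and errors beside group means are SDs. The model was tested on simulated data with residuals independent between genes, so deviations shared across genes were not covered. The members, their roles, the marker lists and the 3 arrays left out were chosen with earlier results of these data known. All members are named, with every array's value for those called and for the 5 highest and 5 lowest differences in GBS against Control, and of the other synaptic genes up to 4 called per direction. Arrays give no counting depth, so their number limits the precision. In all, 24 other settings were tried. Motif searches used RefSeq promoters on GRCm38.p6.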

Additional observations from a re-analysis of the deposited data

How the results depend on the processing

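Counts of the 37 synaptic genes called moved under several settings, and so did the share of all genes called in the same direction, given in parentheses. For GBS against Control, the 8 lower became 24 with array weights (25.9%) or without the 3 arrays that deviate together (18.9%), 23 with the receptor gene median as a covariate (7.37%), 22 with only the groups compared (21.8%), 5 with arrays centred on their medians (2.87%) and 4 with a replicate block (1.34%). Of the 8, Cplx1, Stx1a and Rph3a were not among the 23 called with the receptor covariate. The 0 higher became 2 with array weights (24.5%) or only the groups compared (24.4%) and 1 over 9 arrays (23.5%). For GBS against GS, the 4 lower became 28 with array weights (9.23%) or over 9 arrays (8.77%), 23 with the receptor covariate (8.89%), 2 with centring (0.986%) or the replicate block (0.62%) and 0 with Xist as a covariate (0.12%). For GBS against GB, the 5 lower became 18 with array weights (8.78%) or over 9 arrays (7.09%), 13 with the receptor covariate (3.73%), 3 with centring (1.8%) or a filter at the 60th percentile (3.4%), 2 with the replicate block (0.5%), and 0 with Xist as a covariate (0.113%) or only the groups compared (0%). Of the 5, Slc17a7, Rph3a and Rab3a were not among the 13 called with the receptor covariate. For GS against Control, the 0 called became 13 higher (24.1%) and 2 lower (20.7%) with array weights and 6 higher over 9 arrays (9.86%). The interaction's 0 lower became 17 with array weights (3.61%), 10 over 9 arrays (2.06%) and 2 with the receptor covariate (0.726%), and it has no value with only the groups compared since it uses all of them. Leaving out each array in turn gave 3 to 21 lower (0.549% to 20.2%) and 0 to 1 higher (4.45% to 23%) for GBS against Control, 2 to 11 lower against GS (0.317% to 4.09%), 0 to 7 lower against GB (0.176% to 7.36%), and 0 in the other contrasts. Without GB replicate 2, which is in neither group, the members' median in GBS against Control stayed at -0.36 while 21 were called lower. Why these counts moved was not tested, beyond the fewer arrays of some fits. Replicate numbers did not pair the arrays: correlations of deviations over 18 same-numbered pairs ran from -0.82 to 0.74, and not every array correlated best with its own number.

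Single differences in GBS against Control changed sign for 8 genes, none of them called in the fit to 12 arrays above. With the receptor covariate Dlg4 was -0.29, Nlgn1 -0.99, Rims2 -0.71, Shank2 0.024, Sv2b -0.0075 and Syt11 -0.30, and there Nlgn1 and Rims2 were called lower (adjusted p = 0.0105 and 0.032) and so was Nsf, one more of the 8 (adjusted p = 0.0039). With quantile normalization Nlgn1 was -0.059 and Rims2 -0.12, and with centring Nlgn3 was 0.038 and Nsf 0.022. Over 9 arrays, and without Control replicate 3, Nlgn1 was -0.030, within a range of -0.030 to 0.26 when each array was left out. Those ranges were -0.058 to 0.013 for Nlgn3 and -0.12 to 0.028 for Nsf. Over the members' values in this contrast and the calls in the others, 889 values kept their direction and side of the threshold, 91 passed it newly, 105 no longer passed it and 14 changed sign.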
